A study of Homo sapiens with 4 samples.

Results

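Heat shock chaperones of the cytosol and the mitochondria were measured as mRNA in MV4-11 cells, a human acute myeloid leukemia (AML) line, with and without knockdown of the transcription factor CEBPG. The 43 genes were taken as a named list: the HSP70 and HSP110 proteins, HSP90 and its co-chaperones, small heat shock proteins, the mitochondrial chaperones, J domain proteins, BAG proteins, heat shock factors and 7 subunits of the chaperonin CCT. All 43 were among the 16490 genes with values, and all 43 were among the 12142 tested, whose mean over the libraries reached 0.5 FPKM (fragments scaled by transcript length and by the mapped reads of the library, so that levels can be set side by side between genes).

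RNA-seq was carried out on 4 libraries, 2 of the sh-NC control and 2 of sh-CEBPG#3. The sh-NC cells are labelled as having CEBPG present, and the sh-CEBPG#3 cells carry 1 of the hairpins against CEBPG. Per the study's methods the hairpins were delivered to the leukemia cells in the lentiviral vector pLKO.1-puro, and stable cells were selected with puromycin. No drug or heat treatment is named in the labels. Because 1 hairpin was sequenced, effects of that hairpin and of CEBPG loss cannot be told apart, and the labels leave unsaid whether replicates were infected or grown separately, so p-values measure the spread between these libraries only.

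CEBPG itself was 30.4 and 33.6 FPKM in sh-NC replicates 1 and 2 and 19.2 and 17.1 in sh-CEBPG#3 replicates 1 and 2, a log2 difference of -0.78 (adjusted p = 8.88e-05, limma with Benjamini-Hochberg adjustment) that left 56.8% of the sh-NC mean. All 9 genes of a myeloid marker list were listed, and their summed level was 866 and 940 FPKM in sh-NC and 3533 and 3364 in sh-CEBPG#3, mostly through LYZ (lysozyme) at 567 and 610 against 3126 and 2982. The marker FLT3, the receptor kinase, was 67.6 and 75.0 against 66.0 and 62.8, the only marker of the 9 that was lower in both sh-CEBPG#3 libraries. The myeloid marker CD14 was near 0 in sh-NC, at 0.187 and 0 FPKM, and 1.09 and 0.697 in sh-CEBPG#3. The part of this marker change in the chaperone results was not tested. Of 3 B cell markers 2 were listed, with sums of 0.995 and 1.03 against 1.03 and 1.52 FPKM, and the T cell, erythroid and epithelial lists were not analysed here.

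Chaperones bind unfolded or partly folded proteins and let them fold without clumping. HSP70 takes up a client with the help of a J domain protein, lets it go when an exchange factor such as a BAG protein removes ADP, and can hand it through STIP1 to HSP90, which finishes signalling proteins such as kinases and steroid receptors. The ring-shaped chaperonin CCT folds actin and tubulin, HSPD1 and HSPE1 form the corresponding chamber in mitochondria, and the factor HSF1 switches many of these genes on under stress through the heat shock element. Leukemia cells are known to lean on HSP90, since mutated kinases such as FLT3 are among its clients.

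Heat shock elements are shown here because they are the sequence that several of these genes share. The letters GAANNTTCNNGAA were searched on both strands in the 250 bases before each RefSeq start in the RefSeq promoter table (GRCh38.p14). The table matched 39 of the 43 genes, with 53 windows, and not HSPA14, HSPB11, FKBP4 or HSF1. The element was found in 5 of the 53 windows (9.43%), 1 for each of 5 genes, and in 155 of all 35116 windows of that length (0.441%). Each line below gives 30 bases, or 29 for HSPD1, read 5′ to 3′ on the gene's strand, with the matched letters in capitals.
DNAJB6, chr7:157336865-157336894, plus strand: agagccgaGAACCTTCGCGAAggtggggcg
HSP90AA1, chr14:102087111-102087140, minus strand: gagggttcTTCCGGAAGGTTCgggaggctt
HSP90AB1, chr6:44247770-44247799, plus strand: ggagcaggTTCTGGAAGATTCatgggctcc
HSP90AB1, chr6:44247823-44247852, plus strand: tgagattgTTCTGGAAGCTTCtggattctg
HSPA8, chr11:123062170-123062199, minus strand: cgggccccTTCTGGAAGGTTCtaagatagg
HSPA8, chr11:123062345-123062374, minus strand: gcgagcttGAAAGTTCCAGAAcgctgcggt
HSPD1, chr2:197500062-197500090, minus strand: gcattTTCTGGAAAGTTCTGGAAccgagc

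The matched letters lay 131 to 119 bases before the start of DNAJB6, 88 to 76 before HSP90AA1, 165 to 153 and 112 to 100 before HSP90AB1, and 55 to 43 and 230 to 218 before HSPA8. In HSPD1 2 overlapping matches ran together from 245 to 228 bases before the start. By the GENCODE annotation the matches at DNAJB6, HSP90AA1 and HSP90AB1 lay in introns, and those at HSPA8 and HSPD1 in an exon of at least 1 annotated transcript. The composite C/EBP-ATF letters TTGCATCA, a form bound by C/EBP proteins paired with ATF4, were in 0 of the 53 windows and in 271 of all windows (0.772%). The letters CCAAT were in 16 of the 53 (30.2%, in 13 genes) and in 32.0% of all windows. A match is a description of letters, not of binding.

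The knockdown moved the chaperone mRNAs by small amounts and in both directions. On the log2(FPKM + 1) scale, which understates changes of low genes, the 43 log2 differences ran from -0.82 for FKBP5 to 0.65 for BAG3, with a median of -0.06 beside -0.04 over all genes tested. At an adjusted p below 0.05 in limma, 14 of 43 were called (32.6%), beside 42.2% of all genes tested. The 8 called lower (18.6%, beside 23.8% of all genes) were FKBP5, FKBP4, HSPB11, CCT3, HSPH1, DNAJC9, HSPA14 and DNAJB6. The 6 called higher (14.0%, beside 18.5%) were BAG3, HSPB1, DNAJB2, CCT4, DNAJA2 and TRAP1. In bulk RNA, fewer cells of a type and less RNA per cell cannot be told apart.

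The study's cutoffs, p below 0.05 and a change of more than 2-fold, were also applied to the limma fit on log2(FPKM + 1), with unadjusted p. None of the 43 passed, while 3.41% of all genes did. The study took its cutoffs from DESeq2 on counts, so 3.41% is not its own share of changed genes. An unadjusted p below 0.05 in limma was found for 20 of the 43 (46.5%), beside 50.6% of all genes. In 19 members (44.2%) both sh-CEBPG#3 libraries were below both sh-NC libraries, beside 40.2% of all genes, and in 9 (20.9%) both were above, beside 31.5%. An exact two-sided permutation test of 2 against 2 libraries cannot go below 0.333. The split depended on the scaling between libraries: with each library set to the same FPKM total, or after quantile normalization, 18 members were called lower and 7 higher, together 58.1% of the 43 beside 48.2% (equal totals) and 47.4% (quantile) of all genes. Without sh-NC replicate 1, 17 members were called lower and 3 higher, 46.5% beside 41.3% of all genes. The members' share of calls thus lay above the background under equal totals, after quantile normalization and without sh-NC replicate 1. In all other settings run by gene it lay below, for example 20.9% beside 23.9% when the most abundant transcript stood for the gene. The test of each transcript is not part of this comparison.

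**Figure D1:**
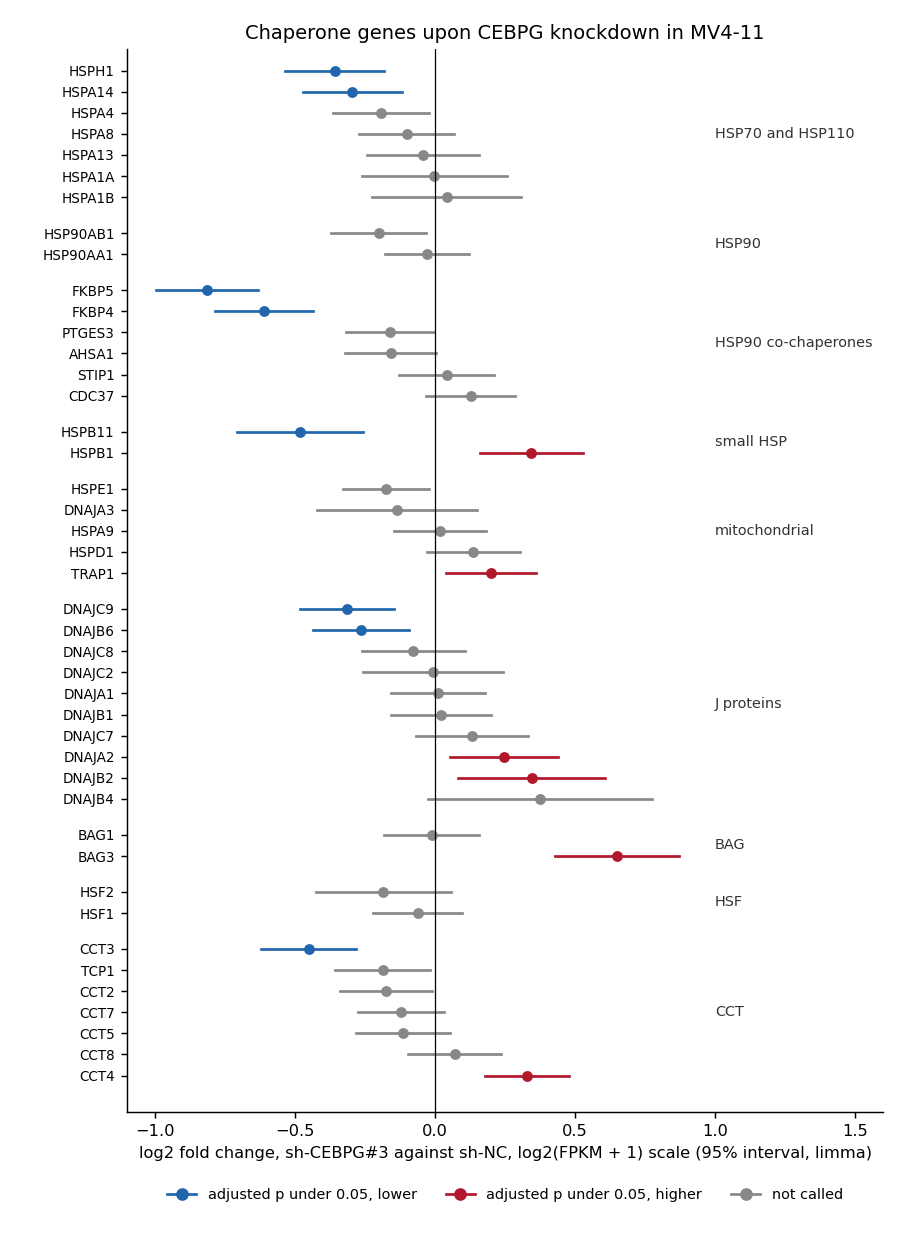
Log2 difference of log2(FPKM + 1), sh-CEBPG#3 minus sh-NC, for each of the 43 genes grouped by role, with the 95% confidence interval from limma as a bar and called genes in color. The points run from -0.82 (FKBP5) to 0.65 (BAG3), and most intervals of HSP70, HSP90 and mitochondrial genes reach or lie near 0.

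As a group the 43 genes were abundant, with a median level of 42.2 FPKM over the 4 libraries beside 7.51 for all genes tested. Their summed FPKM was 3808 and 4143 in sh-NC and 3896 and 3707 in sh-CEBPG#3. As a share of all FPKM this was 1.05% and 1.07% against 1.00% and 0.985%. Both sh-CEBPG#3 shares were below both sh-NC shares. By the sh-NC mean the levels ran in the order HSP90AB1, HSPA8, CCT8, HSPD1, PTGES3, HSPB1, CCT3 and HSP90AA1 at the top, with HSPA1A, HSPA1B and DNAJB4 lowest. HSP90AB1 and HSPA8 did not overlap with each other or with the next in that order in any library, whereas the sh-NC values of HSPD1, PTGES3, HSPB1 and CCT3 overlapped with their neighbours.

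Of the 7 HSP70 and HSP110 genes, 2 were called lower (28.6%, beside 23.8% of all genes) and 0 higher (beside 18.5%). Under equal totals or quantile normalization 4 were called lower, with HSPA4 (adjusted p = 0.00560 and 0.00445, limma) and HSPA8 (0.0278 and 0.00563) added. In those settings 48.2% and 47.4% of all genes were called in either direction. HSPA8, the constitutive cytosolic HSP70, was 314 and 350 FPKM in sh-NC and 317 and 300.2 in sh-CEBPG#3. The groups overlapped, and the log2 difference was -0.10 (95% CI -0.27 to 0.07, adjusted p = 0.310). The stress-inducible HSP70 genes were at low levels in every library. HSPA1A was 1.62 and 1.62 FPKM in sh-NC and 1.66 and 1.57 in sh-CEBPG#3 (log2 difference CI -0.26 to 0.26). HSPA1B was 1.48 and 1.52 against 1.48 and 1.66 (CI -0.23 to 0.31). The HSPA1A and HSPA1B transcripts share most of their sequence, 75.1% and 73.6% of their 50-base windows, so the division of reads between them is uncertain. HSPA8 FPKM was 101 and 111 times the sum of both in sh-NC, and 101 and 92.8 times in sh-CEBPG#3.

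HSPH1, an HSP110 protein that acts as an exchange factor for HSP70, was 20.8 and 22.4 FPKM in sh-NC and 16.5 and 16.7 in sh-CEBPG#3. All sh-CEBPG#3 values were below all sh-NC values, at 76.9% of the sh-NC mean (log2 difference -0.36, SE 0.08, adjusted p = 0.00506), a call lost when the most abundant transcript stood for the gene (adjusted p = 0.0916). HSPA14, which works at the ribosome on newly made chains, was 20.4 and 22.0 against 17.4 and 16.8 FPKM, or 80.6% of the sh-NC mean (log2 difference -0.30, SE 0.08, adjusted p = 0.0138, limma). That level is a sum over transcripts. The leading NM_016299 was 12.7 and 13.3 against 9.26 and 9.49 FPKM. The noncoding NR_103464 was 5.25 and 5.43 against 5.41 and 5.12, and its groups overlapped, as did those of NM_001278205. The HSPA14 call was lost without sh-NC replicate 2 and without sh-CEBPG#3 replicate 2, with adjusted p up to 0.0815. HSPA4, the other HSP110-type gene, was 47.8 and 52.2 against 44.8 and 42.3 FPKM, without overlap but not called (adjusted p = 0.0670). HSPA13, an HSP70 of the endoplasmic reticulum, was 11.5 and 11.9 against 12.1 and 10.6 FPKM, with overlapping groups.

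Neither HSP90 gene was called, with 1 of the 2 at an unadjusted p below 0.05 in limma. HSP90AB1, the constitutive form and the most abundant of the 43, was 645 and 718 FPKM in sh-NC and 605 and 578 in sh-CEBPG#3. Its sh-CEBPG#3 values were both lower, with a log2 difference of -0.20 (95% CI -0.37 to -0.03, adjusted p = 0.0536). HSP90AA1, the stress-inducible form, was 168 and 172 against 169.9 and 163 FPKM, and the groups overlapped (CI -0.18 to 0.12). The ratio of HSP90AB1 to HSP90AA1 FPKM was 3.84 and 4.18 in sh-NC and 3.56 and 3.55 in sh-CEBPG#3. With libraries set to equal totals or after quantile normalization HSP90AB1 was called lower (adjusted p = 0.00285 and 0.00104).

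Among the 6 HSP90 co-chaperones the 2 FK506-binding immunophilins were called lower (33.3%, beside 23.8% of all genes), and none was called higher (beside 18.5%). Under equal totals or quantile normalization 4 were called lower and 1 higher, with AHSA1 (adjusted p = 0.00815 and 0.00659, limma), PTGES3 (0.00472 and 0.00315) and CDC37 (0.0342 and 0.0127) added. Of all genes 48.2% and 47.4% were called in either direction there. FKBP5, which holds steroid receptors in a low-affinity state and is itself induced by glucocorticoids, had the lowest log2 difference of the 43 genes. It was 28.6 and 30.9 FPKM in sh-NC and 17.1 and 15.8 in sh-CEBPG#3, or means of 29.8 ± 1.58 against 16.5 ± 0.909 (SD, n = 2 each). The groups lay far apart, with 55.4% of the sh-NC mean remaining (log2 difference -0.82, SE 0.08, adjusted p = 4.27e-05, limma). FKBP4, its counterpart that links the receptors to dynein transport, was 19.2 and 19.7 against 12.5 and 12.2 FPKM. This was 63.6% of the sh-NC mean (log2 difference -0.61, SE 0.08, adjusted p = 0.000202), and both libraries of each group were close to each other.

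The other co-chaperones were not called on the FPKM as deposited. STIP1, the adaptor between HSP70 and HSP90, was 71.5 and 79.5 FPKM in sh-NC and 77.3 and 77.9 in sh-CEBPG#3, with overlapping groups. CDC37, which brings kinases to HSP90, was 139 and 149 against 160.4 and 154, higher in both sh-CEBPG#3 libraries (adjusted p = 0.176). The remaining pair had lower values in both sh-CEBPG#3 libraries. AHSA1, an activator of the HSP90 ATPase, was 51.5 and 54.4 against 48.4 and 46.2 (adjusted p = 0.107). PTGES3, the p23 protein that binds closed HSP90, was 196 and 206 against 185 and 175 (adjusted p = 0.0901).

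The genes grouped as small heat shock proteins moved apart. HSPB1, which holds unfolded proteins without ATP, was 173 and 201 FPKM in sh-NC and 243 and 231 in sh-CEBPG#3. Its sh-CEBPG#3 values were both higher, at 127% of the sh-NC mean (log2 difference 0.34, SE 0.08, adjusted p = 0.00799). The HSPB1 call was lost without sh-CEBPG#3 replicate 1, where the log2 difference was 0.31. It was also lost with the most abundant transcript (adjusted p = 0.0520, limma) or no filter on low values (0.0545). HSPB1 has no other listed transcript, and its own values and log2 difference of 0.34 were unchanged in the latter settings. What differed there was the set of values of the other genes in the fit. HSPB11, also named IFT25 and known as an intraflagellar transport protein, was 11.9 and 11.7 against 7.36 and 8.99 FPKM. It fell to 69.4% of the sh-NC mean (log2 difference -0.48, SE 0.10, adjusted p = 0.00364).

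**Figure D2:**
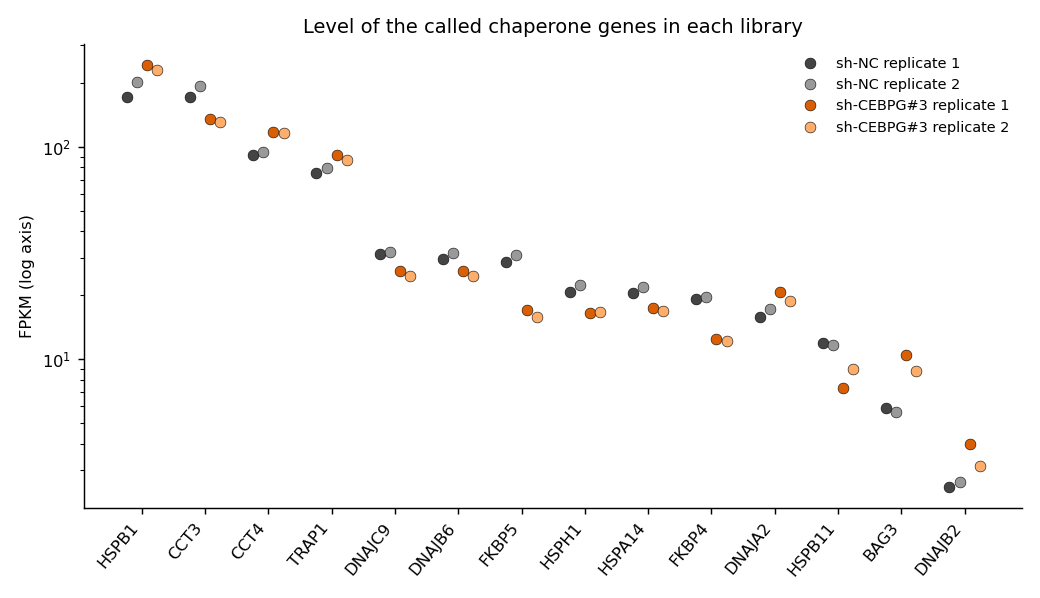
FPKM in each of the 4 libraries for the 14 called genes, on a log axis, with sh-NC and sh-CEBPG#3 replicates as separate points. In all 14 genes the groups do not overlap, and FKBP5, FKBP4 and BAG3 stand furthest apart.

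Of the 5 mitochondrial chaperones, 1 was called higher (20.0%, beside 18.5% of all genes) and 0 lower (beside 23.8%). Under equal totals HSPE1 was called lower as well (adjusted p = 0.00861, limma), where 48.2% of all genes were called in either direction. HSPA9, the mitochondrial HSP70, was 147 and 162 FPKM in sh-NC and 160.0 and 153 in sh-CEBPG#3, with overlapping groups. HSPD1, the HSP60 chaperonin, was 199 and 211 against 236 and 214, higher in both sh-CEBPG#3 libraries but not called (adjusted p = 0.169). HSPE1, its lid, was 99.0 and 104 against 88.8 and 90.5, lower in both but not called (adjusted p = 0.0640). The HSPD1 to HSPE1 ratio of FPKM was therefore 2.01 and 2.03 in sh-NC and 2.66 and 2.37 in sh-CEBPG#3. The canonical HSPE1 and HSPD1 transcripts share 48.2% and 27.1% of their 50-base windows with transcripts of other genes, so these values depend on how shared reads were counted.

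TRAP1, the mitochondrial HSP90, was 75.6 and 79.4 FPKM in sh-NC and 91.9 and 86.5 in sh-CEBPG#3. Both sh-CEBPG#3 values were higher, at 115% of the sh-NC mean (log2 difference 0.20, SE 0.07, adjusted p = 0.0471). The TRAP1 call was lost without sh-NC replicate 1 (log2 difference 0.16) and without sh-CEBPG#3 replicate 1 (0.16) or replicate 2 (0.24). With all libraries kept, it was also lost with no filter (adjusted p = 0.0687, limma), the most abundant transcript (0.0946) or no variance trend (0.108). DNAJA3, the J protein partner of HSPA9, was 16.0 and 19.8 against 18.3 and 14.1 FPKM, and neither group was tight (adjusted p = 0.425).

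Of the 10 cytosolic and nuclear J proteins, 2 were called lower (20.0%, beside 23.8% of all genes) and 2 higher (20.0%, beside 18.5%). DNAJC9, a histone chaperone that recruits HSP70, was 31.4 and 32.1 FPKM in sh-NC and 26.0 and 24.5 in sh-CEBPG#3, or 79.8% of the sh-NC mean (log2 difference -0.32, SE 0.08, adjusted p = 0.00755). DNAJB6, which suppresses the clumping of polyglutamine and other proteins, was 29.8 and 31.6 against 26.1 and 24.6 FPKM, or 82.7% (log2 difference -0.26, SE 0.08, adjusted p = 0.0198). Both genes had non-overlapping groups. The DNAJC9 call was lost without sh-CEBPG#3 replicate 2 (adjusted p = 0.0764), and the DNAJB6 call without sh-NC replicate 2 or without either sh-CEBPG#3 library (adjusted p up to 0.151).

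The J proteins called higher had larger adjusted p-values in limma than those called lower. DNAJA2, a general HSP70 partner, was 15.7 and 17.3 FPKM in sh-NC and 20.8 and 18.8 in sh-CEBPG#3, or 120% of the sh-NC mean (log2 difference 0.25, SE 0.09, adjusted p = 0.0429). DNAJB2, which carries ubiquitin-binding motifs and guides clients to the proteasome, was 2.52 and 2.63 against 3.97 and 3.14 FPKM, or 138% (log2 difference 0.34, SE 0.12, adjusted p = 0.0388). Neither group pair overlapped. Both calls were lost without sh-NC replicate 1 (log2 difference 0.18 for DNAJA2 and 0.32 for DNAJB2) and without sh-CEBPG#3 replicate 1 (0.18 and 0.21). With all libraries kept, both were also lost with no filter (adjusted p = 0.0912 and 0.118, limma) and with the most abundant transcript (0.116 and 0.184). The DNAJA2 call was lost without the variance trend as well (0.0766).

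For the 6 other J proteins no difference was called. DNAJA1, the partner of HSPA8 in many folding reactions, was 39.0 and 40.4 FPKM in sh-NC and 41.4 and 38.5 in sh-CEBPG#3. DNAJB1, the heat-inducible HSP40, was 22.8 and 25.2 against 24.8 and 23.9. In both genes the groups overlapped and the log2 differences were 0.01 and 0.02. DNAJB4, a close relative of DNAJB1, was 1.44 and 1.47 against 2.95 and 1.57, so that sh-CEBPG#3 replicate 1 set its log2 difference of 0.38 (95% CI -0.02 to 0.77, adjusted p = 0.119). DNAJC2, a ribosome-bound J protein, was 16.0 and 18.2 against 19.2 and 15.1. DNAJC7, which binds HSP70 and HSP90 through tetratricopeptide repeats, was 37.3 and 43.3 against 46.4 and 42.0. The groups of DNAJC2 and DNAJC7 overlapped. DNAJC8, a J protein found with the spliceosome, was 50.6 and 58.4 against 51.9 and 51.1, also with overlap.

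The DNAJB6 total covered a difference between its transcripts. NM_058246, which codes for the long, nuclear form, was 22.0 and 22.6 FPKM in sh-NC and 14.2 and 12.9 in sh-CEBPG#3. NM_005494, which codes for the short form, was 7.76 and 8.93 against 11.9 and 11.7. The long form was lower and the short form higher in both sh-CEBPG#3 libraries. In a fit over all 18624 transcripts that passed the filter, the long form had a log2 difference of -0.68 (SE 0.08, adjusted p = 0.0281) and the short form of 0.46 (adjusted p = 0.0749). The long form made up 73.9% and 71.7% of DNAJB6 FPKM in sh-NC and 54.5% and 52.4% in sh-CEBPG#3. The test by transcript was chosen after seeing the data, and values of transcripts that share exons depend on how the authors' program divided the reads.

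The table listed 89 transcripts for the 43 genes, with more than 1 for 26 genes, and 66 were tested. Of the 66, 5 were called lower and 1 higher, beside 8.24% of all transcripts tested. DNAJA3 was unsteady at this level as well. Its transcript NM_001135110 was 11.8 and 17.7 FPKM in sh-NC and 12.9 and 7.60 in sh-CEBPG#3, and NM_005147 was 4.14 and 2.17 against 5.45 and 6.55 (adjusted p = 0.372 and 0.164). In 35 genes the leading transcript held over 90% of the gene's FPKM in every library. The transcripts called were those of CCT3, FKBP4, FKBP5 and DNAJB6 and a minor one of HSP90AB1 (lower) and that of CCT4 (higher). The minor HSP90AB1 transcript, NM_001271969, was 12.0 and 22.0 FPKM in sh-NC and 2.64 and 3.18 in sh-CEBPG#3, a share of 1.85% and 3.06% against 0.437% and 0.549% of the gene (log2 difference -2.15, SE 0.31, adjusted p = 0.0364). The leading transcript of HSP90AB1, NM_007355, was 634 and 696 against 602 and 575 FPKM (adjusted p = 0.219).

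**Figure D3:**
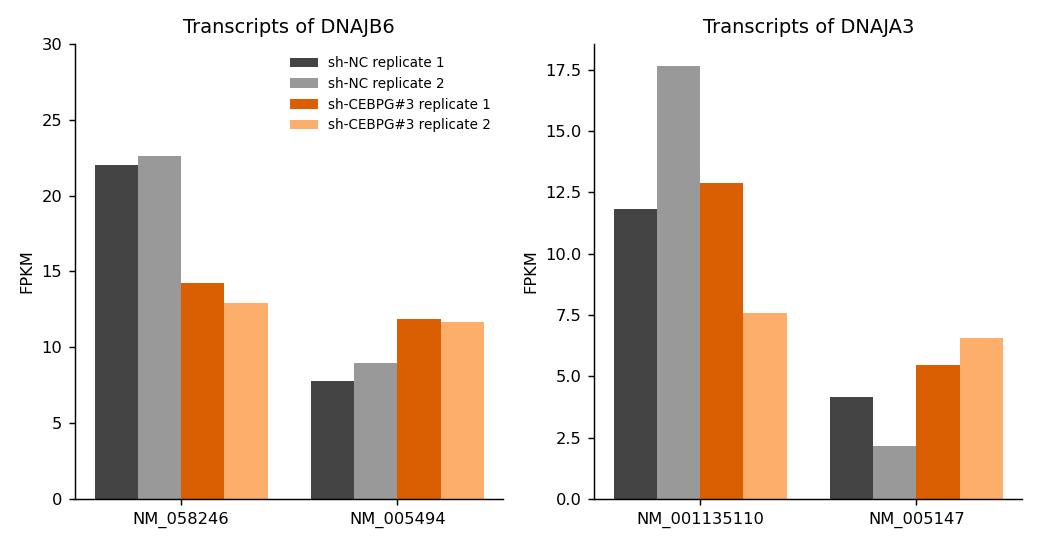
FPKM (vertical axis, from 0) of the main transcripts of DNAJB6 (left) and DNAJA3 (right), with 1 bar for each of the 4 libraries. The long DNAJB6 form NM_058246 is lower and the short form NM_005494 higher in both sh-CEBPG#3 libraries, while the replicates of the DNAJA3 transcripts lie apart within both groups.

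BAG3, which links HSP70 to small heat shock proteins and selective autophagy, had the highest log2 difference of the 43 genes. It was 5.91 and 5.64 FPKM in sh-NC and 10.4 and 8.85 in sh-CEBPG#3. The groups were well apart, at 167% of the sh-NC mean (log2 difference 0.65, SE 0.10, adjusted p = 0.000615). BAG1, the other exchange factor with a BAG domain, was 20.6 and 20.2 against 20.5 and 19.9 FPKM, and the groups overlapped (log2 difference -0.01, adjusted p = 0.911).

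Neither heat shock factor was called, and 0 of the 2 had an unadjusted p below 0.05 in limma. HSF1, the main activator of stress-induced chaperone genes, was 36.7 and 36.5 FPKM in sh-NC and 35.4 and 34.6 in sh-CEBPG#3 (log2 difference -0.06, 95% CI -0.22 to 0.10, adjusted p = 0.514). HSF2, which can form mixed trimers with HSF1, was 8.28 and 8.69 against 8.22 and 6.54 (adjusted p = 0.195). Both had slightly lower values in both sh-CEBPG#3 libraries. Of the 5 genes whose promoter windows held the printed heat shock element, DNAJB6 was called lower, and HSP90AA1, HSP90AB1, HSPA8 and HSPD1 were not called. The search took exact matches only, within 250 bases, and FKBP4, HSPA14, HSPB11 and HSF1 had no window. A gene outside these 5 is thus not shown to lack an element. By the GENCODE annotation the HSPD1 match also lies upstream of HSPE1, which starts at chr2:197500140 on the plus strand. HSPE1 is not among the 5 and was not called.

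CCT is a double ring in which each of 8 different subunits takes 1 fixed place, and 7 of the 8 are in the list. Of those 7, 1 was called lower (14.3%, beside 23.8% of all genes) and 1 higher (14.3%, beside 18.5%). CCT3 was 172 and 193 FPKM in sh-NC and 135 and 131 in sh-CEBPG#3, or 72.8% of the sh-NC mean (log2 difference -0.45, SE 0.08, adjusted p = 0.00106). CCT4 was 91.7 and 94.2 against 118 and 116 FPKM, or 126% (log2 difference 0.33, SE 0.07, adjusted p = 0.00346). The groups of both subunits were well separated. The CCT4 call was lost without sh-CEBPG#3 replicate 1 (adjusted p = 0.0553).

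The ratio of CCT3 to CCT4 FPKM was 1.88 and 2.05 in sh-NC and 1.15 and 1.13 in sh-CEBPG#3. Set against the mean of the 8 subunits in its own library, CCT3 was at 121% and 125% in sh-NC and at 94.2% and 95.1% in sh-CEBPG#3, and CCT4 at 64.5% and 60.9% against 82.2% and 84.2%. CCT3 thus went from above to below the ring's mean level, while CCT4 stayed below it. The ratio of the highest to the lowest subunit was 2.33 and 2.52 in sh-NC and 2.27 and 2.30 in sh-CEBPG#3.

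The 5 other listed subunits were not called on the FPKM as deposited. Under equal totals TCP1 (adjusted p = 0.00585, limma), CCT2 (0.00472), CCT5 (0.0204) and CCT7 (0.010) were called lower, as they were after quantile normalization. In those settings 5 of the 7 were lower and 1 higher. Calls also rose over all genes there, to 48.2% (equal totals) and 47.4% (quantile) in either direction. TCP1 was 136 and 149 FPKM in sh-NC and 129.7 and 119.7 in sh-CEBPG#3 (adjusted p = 0.0740). CCT2 was 163 and 175 against 155 and 144 (adjusted p = 0.0801). TCP1 and CCT2, like CCT5 and CCT7, had both sh-CEBPG#3 values below both sh-NC values. CCT5 was 107 and 118 against 106 and 101, and CCT7 was 149 and 157 against 142 and 138. CCT8, the most abundant subunit, was 214 and 238 against 240.4 and 233, with overlapping groups. CCT6A, the subunit outside the list, was 106 and 115 against 122 and 118 FPKM (log2 difference 0.12, 95% CI -0.04 to 0.28, adjusted p = 0.221).

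**Figure D4:**
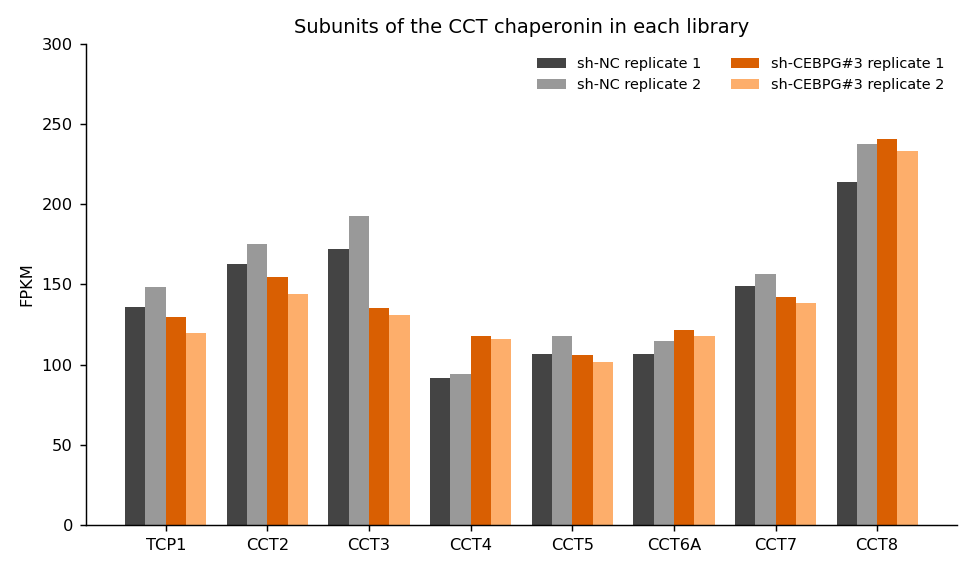
FPKM (vertical axis, from 0) of the 8 CCT subunits, with 1 bar for each of the 4 libraries. CCT3 is lower (172 and 193 against 135 and 131) and CCT4 higher (91.7 and 94.2 against 118 and 116) in sh-CEBPG#3, and the other 6 subunits differ less.

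By role, the summed share of all FPKM was lower in both sh-CEBPG#3 libraries for CCT (0.283% and 0.289% against 0.263% and 0.261%) and for HSP90 (0.223% and 0.229% against 0.199% and 0.197%). The share of the HSP90 co-chaperones was 0.139% in both sh-NC libraries and 0.128% in both sh-CEBPG#3 libraries. HSP70 and HSP110 (0.115% and 0.119% against 0.1055% and 0.104%), J proteins (0.0677% and 0.0697% against 0.0676% and 0.0647%) and heat shock factors (0.0123% and 0.0116% against 0.0112% and 0.0109%) were also lower. Small heat shock proteins went the other way, from 0.0506% and 0.0548% to 0.0641% and 0.0638%, most of it HSPB1. BAG proteins (0.00727% and 0.00665% against 0.00793% and 0.00765%) and mitochondrial chaperones (0.1474% and 0.1483% against 0.1528% and 0.1484%) were also higher. These shares are set by the most abundant members and were not tested.

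Other chaperone genes, from a list of 100 that covers further J proteins and BAG proteins, prefoldin, tubulin cofactors, HSP90-linked assembly factors and mitochondrial proteases, were measured beside the 43. Of the 100, 86 were listed and 74 tested, and 16 were called lower and 6 higher (29.7% together, beside the 42.2% of all genes). Their median log2 difference was -0.03. The lowest among those called was DNAJC17, a nuclear J protein, at 10.1 and 9.46 FPKM in sh-NC and 5.63 and 4.91 in sh-CEBPG#3 (log2 difference -0.79). TTC4, an HSP90 co-chaperone, was 10.2 and 10.1 against 5.39 and 6.21 (-0.72). The next were CLPB, a mitochondrial disaggregase, at 6.58 and 6.77 against 4.54 and 3.57 (-0.61), and PIH1D1, a subunit of the R2TP complex that works with HSP90, at 42.0 and 48.8 against 31.5 and 31.5 (-0.51).

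Of those called higher, TOMM34, a cytosolic partner of HSP70 and HSP90 in mitochondrial import, was 11.2 and 11.3 FPKM in sh-NC and 18.3 and 17.0 in sh-CEBPG#3 (log2 difference 0.60). DNAJC30, a mitochondrial J protein, was 2.72 and 2.69 against 4.27 and 4.53 (0.54), and DNAJC5, a J protein of secretory vesicles, was 33.5 and 35.1 against 46.9 and 44.8 (0.41). In these 3 genes the libraries of each group were close together. PFDN6, a prefoldin subunit that passes actin and tubulin to CCT, had the highest log2 difference of 0.79, at 14.5 and 16.4 against 18.7 and 39.8 FPKM. The PFDN6 call rested on sh-CEBPG#3 replicate 2 (adjusted p = 0.0278 with it and 0.102 without it).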

How the data were processed

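RNA-seq was carried out on 4 MV4-11 libraries, 2 per group. The authors filtered the reads and mapped them with HISAT2 (version 2.0.5 and build hg38 per the submitters' processing notes), and the authors deposited FPKM per RefSeq transcript; the program that computed FPKM is not given in the sources used here. FPKM hold no read counts and their low values showed no common step, so depth is unknown and the DESeq2 test the authors used on counts was not run. Of 28780 transcripts, 199 had no values; the other 28581 were summed by symbol to 16490 genes. Genes averaging 0.5 FPKM or more were tested on log2(FPKM + 1) with limma 3.58.1 (lmFit, eBayes with trend; R 4.3.3) and Benjamini-Hochberg adjustment, called at an adjusted p below 0.05. The members and lists were chosen with earlier results of these data known. Named genes are all 43 members, the 4 lowest and 4 highest called genes of the other chaperone list, CCT6A and CEBPG, and myeloid markers as a check. Replicate numbers were not used as pairs: deviations of same-numbered libraries correlated at 0.0606 across genes. Shared sequence is the percent of 50-base windows of the GENCODE v44 canonical transcript found in other genes' transcripts. The limma script was tested on simulated data. Alternatives were other pseudocounts (0.1, 0.01), filters, scalings, transcript choice, variance model, a replicate block and each library left out. The tests by transcript and the study's threshold, applied here to the limma fit, were added after seeing the data.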

Additional observations from a re-analysis of the deposited data

How the results depend on the processing

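The 8 members called lower became 18 with quantile normalization and 18 with equal FPKM totals, 5 in the test of each transcript and 0 at the study's threshold, and ran from 5 to 17 with 1 library left out (17 without sh-NC replicate 1, 5 without sh-CEBPG#3 replicate 2). The 6 called higher became 2 with no filter, 2 with the most abundant transcript, 1 in the test of each transcript and 0 at the study's threshold, and ran from 1 (without sh-CEBPG#3 replicate 1) to 8 (without sh-NC replicate 2). Of the other chaperone genes, the 16 called lower became 10 with the most abundant transcript and ran from 9 to 16 with 1 library left out, and the 6 called higher became 12 with quantile normalization. Over all genes, the 5128 calls became 2864 with the most abundant transcript and 414 at the study's threshold, and ran from 4031 to 5013 with 1 library left out. With a replicate block 7 members were called lower and 5 higher, and TRAP1 (adjusted p = 0.182), DNAJA2 (0.0882) and DNAJB6 (0.0660) were no longer called while DNAJB4 (0.0254) was called higher. The replicate numbers share only a number, and the cause of these moves was not tested.

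FKBP5, FKBP4, BAG3, CCT3 and HSPB11 were called in each fit by gene that kept all 4 libraries. In the test of each transcript FKBP5, FKBP4 and CCT3 were still called. The BAG3 transcript (adjusted p = 0.0535, limma) and the leading HSPB11 transcript (0.0982) were not. None of these genes passed the study's threshold. TRAP1 lost its call with no filter, the most abundant transcript, no variance trend or a replicate block. No called member changed sign in any setting. Members that were not called and changed sign on the log2 scale under quantile normalization were HSPA1A (0.0051), HSP90AA1 (0.0022), DNAJC2 (0.021), BAG1 (0.0042), STIP1 (-0.0024) and CCT8 (-0.013). Under equal totals they were HSPA9 (-0.0076), DNAJA1 (-0.016) and DNAJB1 (-0.0041). With 1 library left out the values ran from -0.048 to 0.085 for HSPA9, -0.042 to 0.061 for DNAJA1, -0.047 to 0.089 for DNAJB1, -0.030 to 0.0055 for BAG1, -0.034 to 0.12 for STIP1, -0.0047 to 0.14 for CCT8, -0.31 to 0.041 for DNAJA3, -0.17 to 0.16 for DNAJC2, -0.18 to 0.024 for DNAJC8, -0.026 to 0.022 for HSPA1A, -0.010 to 0.092 for HSPA1B and -0.13 to 0.044 for HSPA13. Depth is unknown, so FPKM near 1, as for HSPA1A, HSPA1B and DNAJB4, have an unknown counting error.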
